A study of Mus musculus with 17 samples.

Results

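The baseline described here is the frontal cortex transcriptome of 6 mice that carried the CamK driver alone, 6 of the 17 samples of the series. They were chosen by their label, Ct 1 to Ct 6, and by no measured value. The driver belongs to a Tet-off pair: it makes a tetracycline-controlled transactivator in forebrain excitatory neurons, and in other animals of the series it switches on a miR-211 transgene, which these 6 mice lacked. All 6 were male FVB/N mice given no doxycycline, the drug that silences such a pair. Their age is not given in the sources used here. Total RNA was extracted with the miRNeasy kit, had an RNA integrity number of 8 to 8.9 and was made into poly(A)-selected single-end libraries. Each mouse gave 1 library, and each library gave a value for 46073 genes in FPKM, a read count scaled to the length of the transcript and the size of the library. All 6 controls carry the driver, so an effect of the transactivator itself cannot be told apart from the baseline. No group of the series was compared with another, and libraries were not tested against each other: spread is the SD over 6 libraries and the coefficient of variation (CV), which is the SD divided by the mean.

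Frontal cortex is made of layered excitatory neurons that release glutamate, inhibitory interneurons that release GABA, and the astrocytes, oligodendrocytes, microglia and vessel cells that serve them. Neurons spend most of their energy on ion pumping and synaptic release, and draw it from glycolysis and from the respiratory chain, part of which is encoded in the mitochondrial genome. In bulk tissue the level of a marker depends on how many cells carry it and on how much RNA each holds; fewer cells of a type and less RNA per cell cannot be told apart.

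The summed FPKM ran from 628549 in Ct 1 to 690919 in Ct 6, and 15762 to 16077 genes per library reached 1 FPKM. A total of 14638 genes reached 1 FPKM in all 6 libraries and 16307 had a mean of at least 1 FPKM. The smallest values of single-exon genes put the depth at roughly 21100000 to 28100000 reads per library, an estimate only, because the deposited values carry no counts. Across the 16307 genes, Pearson's r of log2(FPKM + 0.5) lay between 0.929 and 0.942 over the 15 pairs of libraries, and between 0.973 and 0.989 over protein-coding genes. These are correlations across genes, which are not independent replicates. No 2 files held the same values. The library names in the file headers carry the numbers 103, 105 and 108 for Ct 1 to Ct 3 and 612, 634 and 638 for Ct 4 to Ct 6, and what the numbers stand for is not given in the sources used here. Values of Ct 1 to Ct 3 did not overlap those of Ct 4 to Ct 6 for 14.4% of the 16307 genes, for the shares of 16 of 48 lists by function and for 3 of 22 lists of cell type markers. Some values fail to overlap in such a split by chance, and no test was run. Mitochondrially encoded genes and microglia markers were lower, and glycolytic enzymes, synaptic vesicle proteins and immediate-early genes higher, in Ct 1 to Ct 3. Microglia markers held 0.0658 to 0.0687% there and 0.0728 to 0.0818% in Ct 4 to Ct 6. Ependymal markers, also among the 3 marker lists, held 0.0120 to 0.0226% and 0.0231 to 0.0311%. Cholinergic neuron markers, the last of them, held 0.00403 to 0.0049% and 0.00572 to 0.0099%. As a share, 3 of 22 lies near the 14.4% of all genes, so it sets no cell type apart. A higher mitochondrial share lowers all other shares of the same total. Without mitochondrial genes and their copies on nuclear chromosomes, synaptic vesicle proteins overlapped, with 1.971% in Ct 1 and 1.976% in Ct 5. Postsynaptic scaffolds and glutamate receptors, among others, then overlapped too. The microglia, ependymal, cholinergic, glycolysis and immediate-early lists, among others, still did not overlap.

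Some genes named in the labels or linked to them were looked at first. Mir211 was listed at 0 in all 6 libraries, which checks nothing about the transgene because short RNA genes are often listed at 0 in poly(A) libraries, and its host gene Trpm1 stayed between 0.0375 and 0.398 FPKM. Xist, the X-inactivation transcript of females, had at most 0.0169 FPKM, while the Y-linked helicase gene Ddx3y had 22.3 ± 1.48 FPKM (SD, n = 6). Camk2a, the calcium/calmodulin-dependent kinase whose promoter gives such drivers their name, is read here from its own locus and does not check the driver; it had 602, 795, 917, 697, 692 and 843 FPKM in Ct 1 to Ct 6. The vesicular glutamate transporter Slc17a7, which marks cortical excitatory neurons, had 473 ± 71.7 FPKM.

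The most abundant transcripts were mitochondrial. The 37 genes encoded in the mitochondrial genome held 22.1% ± 1.58 of the summed FPKM, with 19.3% in Ct 1 and 21.9 to 23.8% in the other 5 libraries. The first of them, mt-Atp8, a small subunit of ATP synthase, had 46280, 54217, 57290, 57318, 63437 and 57766 FPKM in Ct 1 to Ct 6, a mean of 56051. That gene alone held 8.32% ± 0.668 of the total. It is 204 bases long and its end overlaps the start of mt-Atp6, which had 10113 ± 868 FPKM. The cytochrome oxidase subunit mt-Co1 followed with 17098 ± 1307 FPKM and the cytochrome b gene mt-Cytb had 8444 ± 1039 FPKM. Ct 1 had the lowest value for each of these 4 genes. FPKM divides by gene length, so short genes weigh more: weighted by exon length, which approximates reads, mitochondrially encoded genes held 4.7% in place of 22.1%. Of the mitochondrial transfer RNAs, 20 were listed at 0 in every library, and mt-Tp and mt-Tm had a value in 1 library each.

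A second set among the 20 most abundant genes was annotated as pseudogenes on nuclear chromosomes. Of the 20, 6 were mitochondrial-like pseudogenes on chromosome 1, among them Gm29216, Gm10925, Gm28661 and Gm28437. Over all genes, 11 nuclear transcripts matched a mitochondrial transcript at 95% identity or more over at least 90% of their length, and they held 7.92% ± 0.526 of the summed FPKM. The following stretch of mt-Co2, a cytochrome oxidase subunit, is set beside 2 nuclear copies because an identical and a less similar copy had different values. Coordinates are those of the GENCODE M21 annotation (GRCm38), and capitals mark bases that differ from mt-Co2.
mt-Co2, chrM:7204-7303 (plus strand): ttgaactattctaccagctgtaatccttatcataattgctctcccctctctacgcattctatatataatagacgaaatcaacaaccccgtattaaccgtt
Gm28661, chr1:24615275-24615374 (minus strand): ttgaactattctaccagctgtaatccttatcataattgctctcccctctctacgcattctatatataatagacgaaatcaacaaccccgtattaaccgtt
Gm13341, chr2:22587672-22587771 (minus strand): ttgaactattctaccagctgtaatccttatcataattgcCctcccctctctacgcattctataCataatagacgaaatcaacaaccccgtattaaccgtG
Gm28661 had no difference from mt-Co2 over its aligned 681 bases, and its FPKM was 7108, 9081, 8153, 7954, 8943 and 9195 in Ct 1 to Ct 6, against 7002, 8850, 8030, 7830, 8830 and 9033 for mt-Co2. Gm13341 had 3 differences in this stretch and 95.9% identity over its whole alignment, and its mean was 1330 FPKM, 0.161 of the mean of mt-Co2. Of the 11 copies, 5 had a mean within 5% of their mitochondrial gene. Reads from a gene and from an identical copy cannot be told apart, so these pseudogene values are uncertain. Mitochondrial genes and copies together held 30.1% ± 2.08 of the summed FPKM, which leaves 69.9% for all other genes.

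By annotation class, protein-coding genes held 84.3% ± 0.299 of the summed FPKM, unprocessed pseudogenes 8.01% ± 0.522, and processed pseudogenes 2.41% ± 0.0847. Genes annotated as microRNA hairpins held 1.05% ± 0.0706, although poly(A) selection does not capture mature microRNAs. Long intergenic noncoding RNAs held 0.747% ± 0.0584. A list of 23 long noncoding RNAs of brain held 0.399% ± 0.0537 and was led by Meg3 at 755 ± 163 FPKM and Rian at 750 ± 50.2 FPKM, both imprinted transcripts of chromosome 12. The total was concentrated in few genes: the first 20 held 28.9% ± 2.0 of it, the first 100 held 38.6% and the first 1000 held 62.8%. Weighted by exon length, the first 20 held 6.0%, and without mitochondrial genes and copies 4.98%.

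**Figure D1:**
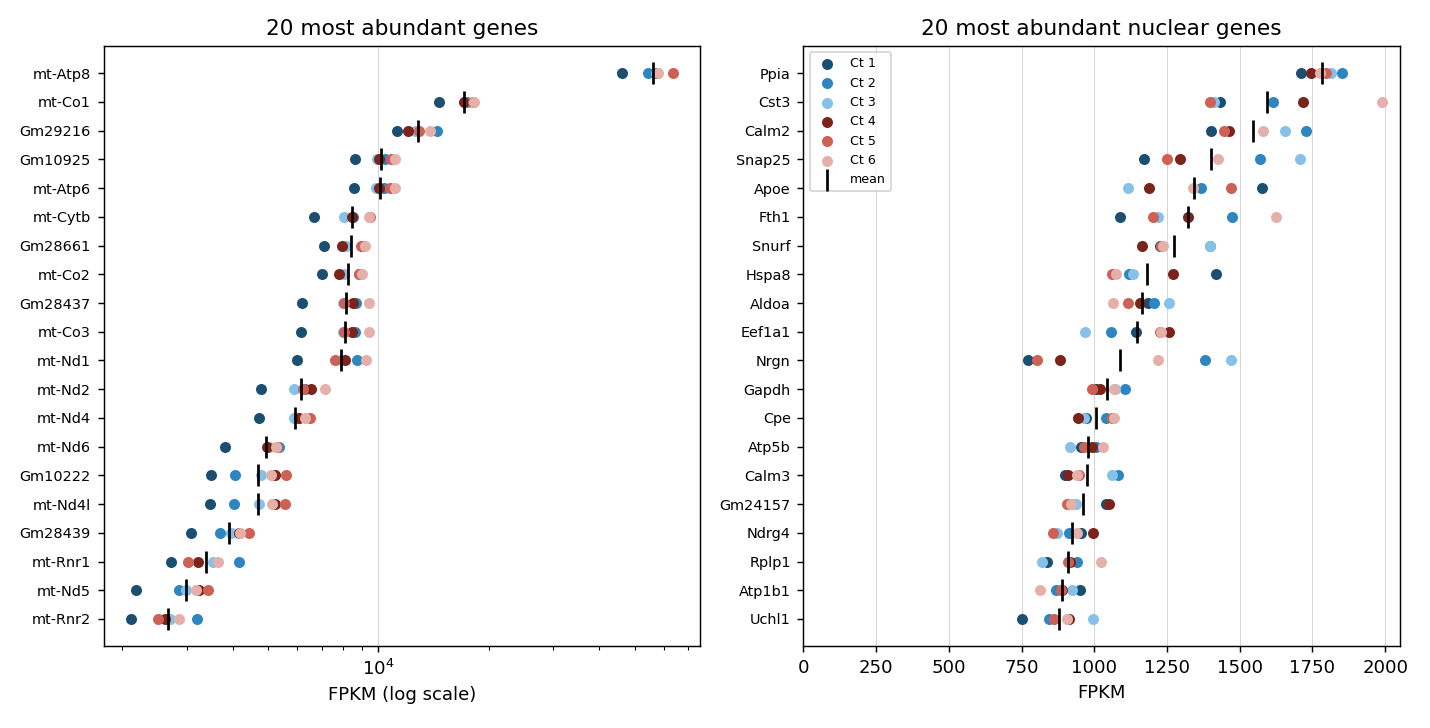
FPKM of the 20 most abundant genes (left, log axis) and of the 20 most abundant genes other than mitochondrial genes and their nuclear copies (right, linear axis from 0), 1 coloured point per library and a black tick at the mean. The left panel holds mitochondrial genes, from mt-Atp8 at 56051 FPKM downwards, and 6 of their nuclear copies, and Ppia leads the right panel at 1783 FPKM.

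With the nuclear copies of mitochondrial genes set aside, Ppia, a peptidyl-prolyl isomerase known as cyclophilin A, was the most abundant nuclear gene at 1711, 1852, 1814, 1746, 1796 and 1777 FPKM in Ct 1 to Ct 6, a narrow range with a CV of 0.028. Cst3, a secreted inhibitor of cysteine proteases, followed with 1594 ± 232 FPKM. Calm2, a calmodulin gene, had 1545 ± 131 FPKM, ahead of Calm3 at 973 ± 78.3 FPKM. Snap25, which drives vesicle fusion at the synapse, had 1403 ± 206 FPKM, and Apoe, the lipid carrier of astrocytes, had 1343 ± 171 FPKM. Nrgn, a calmodulin-binding protein of excitatory dendrites, had 772, 1382, 1471, 881, 802 and 1218 FPKM in Ct 1 to Ct 6. Its CV of 0.283 was the widest of the 20 nuclear genes, with Ct 2, Ct 3 and Ct 6 above the other 3 libraries. Snurf, with 1275 FPKM, shares its locus with Snrpn, so its reads are uncertain.

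Genes were then summed in 48 lists by function. Cytosolic ribosomal proteins held 3.24% ± 0.203 of the summed FPKM, with Ct 3 lowest at 2.85% and the others between 3.25 and 3.42%; the 3 highest members were Rplp1 at 909, Rpl13a at 836 and Rps29 at 743 FPKM. Nuclear-encoded subunits of oxidative phosphorylation held 2.64% ± 0.11, led by the ATP synthase subunit Atp5b at 977 ± 40.1 FPKM. Synaptic vesicle and release proteins held 1.44% ± 0.112, with Snap25, the vesicle protein Syp at 631 FPKM and Vamp2 at 531 FPKM in front. The order of these 3 lists turned when genes were weighted by exon length: synaptic vesicle proteins then held 2.32%, ribosomal proteins 1.88% and oxidative phosphorylation 1.63%. Calcium and calmodulin effectors held 0.973% ± 0.114, chaperones 0.843% ± 0.0756 with Hspa8 at 1180 FPKM, and glycolytic enzymes 0.909% ± 0.0461 with Aldoa at 1164 FPKM and Gapdh at 1044 FPKM. Ubiquitin and proteasome genes held 0.992% ± 0.0243 and translation factors 0.938% ± 0.0349, with Eef1a1 at 1147 FPKM.

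Ion channels and receptors took smaller shares. The 34 glutamate receptor genes at 1 FPKM or more, of 37 measured, belonged to a list with 0.19% ± 0.00926 of the summed FPKM, led by the NMDA receptor subunit Grin1 at 217 ± 35.2 FPKM. GABA receptors held 0.139% ± 0.00981, with the GABA-B subunit Gabbr1 at 349 ± 40.2 FPKM. Potassium channels held 0.22% ± 0.013 and sodium channels 0.0866% ± 0.00963. Neuropeptides held 0.315% ± 0.0244, with Cck at 482 ± 105 and Sst at 250 ± 20.7 FPKM.

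**Figure D2:**
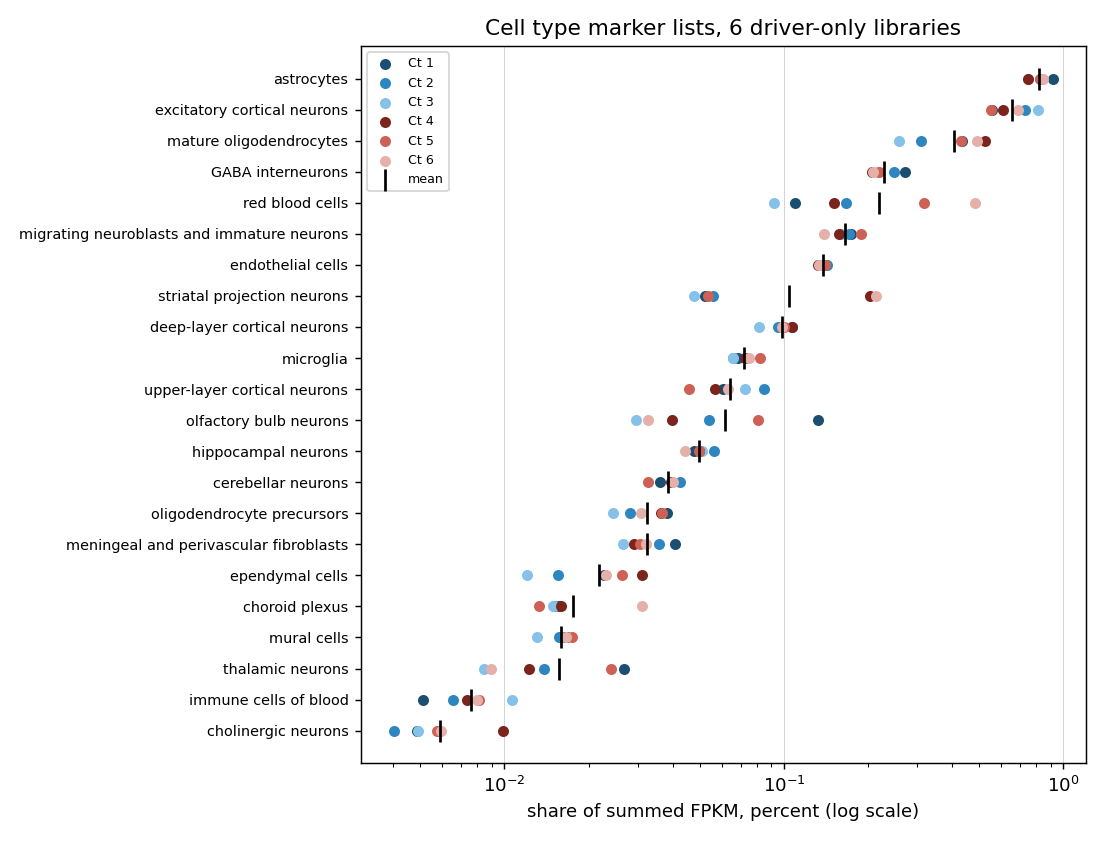
Share of the summed FPKM held by each of 22 cell type marker lists, in percent on a log axis, 1 coloured point per library and a black tick at the mean. Astrocyte and excitatory neuron lists hold the largest shares, while the points of red blood cells, striatal projection neurons and olfactory bulb neurons spread over more than a 4-fold range.

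The 22 marker lists were summed the same way. A list's share depends on how many genes it holds and how abundant they are, so shares do not give the proportions of cells. Astrocyte markers held 0.818% ± 0.0634 of the summed FPKM, with Apoe, the glutamine synthetase gene Glul at 671 ± 60.1 FPKM and Sparcl1 at 536 ± 23.4 FPKM in front. Markers of excitatory cortical neurons held 0.555, 0.728, 0.808, 0.61, 0.551 and 0.691% in Ct 1 to Ct 6. Ct 3 and Ct 2 were highest, and Ct 1 and Ct 5 lowest. GABA interneuron markers held 0.228% ± 0.0258, microglia 0.0717% ± 0.00622 and endothelial cells 0.138% ± 0.0043; the endothelial share was lowest in Ct 4 at 0.132% and highest in Ct 2 at 0.143%.

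Mature oligodendrocyte markers held 0.433, 0.309, 0.259, 0.524, 0.43 and 0.491% in Ct 1 to Ct 6. Their leading gene is Mbp, a structural protein of myelin, with 767, 637, 496, 1079, 906 and 1079 FPKM. Ct 4 and Ct 6 were high and Ct 2 and Ct 3 low. None of the 30 markers in the list had a CV of 0.5 or more, which is near the background: 2.16% of the protein-coding genes with a mean of 1 FPKM or more did.

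Of these lists, 5 differed more than 2-fold between their highest and lowest library and had a median CV of 0.5 or more: red blood cells, striatal projection neurons, olfactory bulb neurons, choroid plexus and cholinergic neurons. Their values are given next with the libraries in which they were high, because those libraries recur.

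Striatal projection neurons lie beneath the cortex and receive dopamine. Their 28 listed markers held 0.0522, 0.0559, 0.0477, 0.203, 0.0535 and 0.214% of the summed FPKM in Ct 1 to Ct 6, so that Ct 4 and Ct 6 stood apart from the other 4. Of the 26 markers at 1 FPKM or more, 22 had a CV of 0.5 or more, against 6.57% of all 16307 genes and 2.16% of the 13022 protein-coding genes. Ppp1r1b, the dopamine-regulated phosphatase inhibitor DARPP-32, had 44.5, 66.6, 59.1, 267, 63.6 and 320 FPKM. Penk, the precursor of enkephalins, had 69.1, 51.0, 28.9, 244, 48.4 and 266 FPKM. The adenosine receptor gene Adora2a had 1.42, 1.09, 0.665, 26.5, 2.53 and 29.5 FPKM. Drd2, a dopamine receptor, had 18.9 and 19.1 FPKM in Ct 4 and Ct 6 and at most 1.85 FPKM in the others. Markers of cholinergic neurons held 0.00487, 0.00403, 0.0049, 0.0099, 0.00572 and 0.00592% in Ct 1 to Ct 6, so that by share Ct 4 alone stood apart. Of the 10 markers, 7 had their 2 highest values in Ct 4 and Ct 6; Ache, Zic4 and Ngfr did not. Among the 7 were the acetylcholine-synthesizing enzyme Chat, at 3.65 FPKM in Ct 4 and 1.89 FPKM in Ct 6 against at most 0.346 FPKM elsewhere, and the transcription factor Isl1, at 5.83 and 4.85 FPKM against at most 0.485 FPKM. The part of the dissection in these values was not tested.

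Olfactory bulb neurons form another set. Their 28 markers held 0.132, 0.0541, 0.0296, 0.0398, 0.0809 and 0.0327% of the summed FPKM in Ct 1 to Ct 6, highest in Ct 1 and Ct 5. Of the 22 markers at 1 FPKM or more, 16 had a CV of 0.5 or more, against the same 6.57% of all genes and 2.16% of protein-coding genes. Calb2, the calcium buffer calretinin, had 102, 40.2, 7.18, 11.8, 72.4 and 4.77 FPKM. Th, the rate-limiting enzyme of dopamine synthesis, had 41.5, 8.47, 1.64, 2.25, 24.5 and 1.53 FPKM. Doc2g had 91.7, 28.3, 1.71, 2.89, 43.9 and 3.21 FPKM. In each of these 3 genes the 3 highest libraries were Ct 1, Ct 5 and Ct 2, in that order. The fatty acid carrier Fabp7 had 134 FPKM in Ct 1 and 102 FPKM in Ct 5, against 16.4 to 42.6 FPKM in the rest. Omp and S100a5, genes of olfactory sensory neurons chosen after their values were seen, followed the same libraries. Omp had 13.7 FPKM in Ct 1 and 7.01 FPKM in Ct 5, with at most 0.437 FPKM elsewhere. S100a5 had 101, 6.69, 0.354, 0.131, 66.9 and 0 FPKM. Their list of 6 genes held 0.0302, 0.0147, 0.0106, 0.00837, 0.0229 and 0.00958% in Ct 1 to Ct 6. Of its 4 genes at 1 FPKM or more, 3 had a CV of 0.5 or more, so not all varied widely.

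Red blood cell genes held 0.109, 0.166, 0.0925, 0.151, 0.316 and 0.482% of the summed FPKM in Ct 1 to Ct 6. Hbb-bs, an adult beta-globin, had 193, 337, 153, 313, 763 and 1118 FPKM, and Hba-a1, an adult alpha-globin, had 121, 225, 112, 195, 467 and 685 FPKM. Both were highest in Ct 6, then Ct 5, and lowest in Ct 3. Alas2, the erythroid enzyme of heme synthesis, had 6.46 FPKM in Ct 6 and 4.94 FPKM in Ct 5 against 1.15 FPKM in Ct 3. The promoters of this beta-globin and this alpha-globin are printed because the genes moved together across libraries from separate chromosomes. Sequences are RefSeq (GRCm38.p6), 250 bases before to 50 after the start, 5′ to 3′ on the gene's strand. Capitals mark the letters TATAA of the TATA box, CCAAT of the CAAT box, GGGCGG of the GC box and TGACG of the cAMP response element, searched on either strand in all promoters; overlapping matches run together.
Hba-a1, chr11:32283422-32283721 (plus strand): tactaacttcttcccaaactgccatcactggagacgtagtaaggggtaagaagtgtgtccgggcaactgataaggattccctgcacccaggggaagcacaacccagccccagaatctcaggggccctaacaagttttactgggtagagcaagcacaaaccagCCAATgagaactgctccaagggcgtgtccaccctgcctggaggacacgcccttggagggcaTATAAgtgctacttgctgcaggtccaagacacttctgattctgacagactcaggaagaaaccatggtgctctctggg
Hbb-bs, chr7:103827879-103828178 (minus strand): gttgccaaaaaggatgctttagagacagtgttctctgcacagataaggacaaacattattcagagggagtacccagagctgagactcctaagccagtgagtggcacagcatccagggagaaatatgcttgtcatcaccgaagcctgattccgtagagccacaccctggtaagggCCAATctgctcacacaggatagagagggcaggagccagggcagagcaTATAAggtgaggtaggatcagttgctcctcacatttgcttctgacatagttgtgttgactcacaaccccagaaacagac
Each holds 1 match to the TATA box and 1 to the CAAT box, and neither holds the other 2. Of 32851 promoters of this length in the table, 24.9% hold the TATA letters, 37.4% the CAAT box, 35.7% the GC box and 20.8% the cAMP element letters. Among 10175 promoters of protein-coding genes with a mean of 1 FPKM or more, the same shares were 12.5, 38.3, 65.2 and 31.8%. Hba-a2, the second alpha-globin at 343 ± 258 FPKM, has the same promoter letters as Hba-a1 over a run of 297 bases, and how reads divide between these near-identical genes is uncertain.

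Among choroid plexus genes, Ttr was set apart in a single library. Ttr, the thyroid hormone carrier made by choroid plexus, had 1.31, 2.22, 0.661, 0.867, 3.56 and 86.7 FPKM in Ct 1 to Ct 6, and its CV of 2.18 was the largest among protein-coding genes with a mean of 10 FPKM or more. Without Ct 6 the CV was 0.69. The whole list held 0.0311% in Ct 6 and 0.0133 to 0.0159% in the others, a gap that rests mainly on Ttr: the other 19 genes held 0.0186% in Ct 6 and 0.0128 to 0.0158% in the others. Of its 20 measured markers, 9 had a mean of 1 FPKM or more. Of the 19 genes other than Ttr, 10 were highest in Ct 6 and 16 were highest or second there. Not all were: the water channel gene Aqp1 had 7.19 FPKM in Ct 1 and 0.311 FPKM in Ct 6. The potassium channel gene Kcnj13 was highest in Ct 3 at 3.45 FPKM. Folr1 had at most 0.72 FPKM and Kl at most 1.07 FPKM, each highest in Ct 6.

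Pituitary hormone genes, chosen after their values were seen, were highest in Ct 2. Gh, growth hormone, had 2.74, 28.2, 0.517, 0, 7.4 and 0.0448 FPKM in Ct 1 to Ct 6. Pomc, the precursor of corticotropin, had 15.9 FPKM in Ct 2 and at most 1.71 FPKM elsewhere, and Prl, prolactin, had 5.67 FPKM in Ct 2 and at most 1.1 FPKM elsewhere. The 7 hormone genes together held 0.00767% of the summed FPKM in Ct 2.

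Immediate-early genes, which neurons switch on within minutes of activity, held 0.218, 0.168, 0.176, 0.157, 0.134 and 0.127% of the summed FPKM in Ct 1 to Ct 6. Fos had 42.1, 21.2, 29.7, 21.4, 25.1 and 11.6 FPKM, and Npas4 had 17.5, 10.7, 17.7, 8.06, 10.5 and 4.58 FPKM. Fosb had 13.2 FPKM in Ct 1 and 2.57 to 6.44 FPKM in the others. The list was highest in Ct 1 and lowest in Ct 6, and so were Fos and Fosb; Npas4 was level in Ct 1 and Ct 3 and lowest in Ct 6. The list was also higher in each of Ct 1 to Ct 3, the libraries with header numbers in the 100s, than in any of Ct 4 to Ct 6; the part of whatever the numbers stand for was not tested. Egr1, which is also induced by activity, had a narrower range, from 78.0 FPKM in Ct 6 to 130 FPKM in Ct 1. The promoters of Fos and Npas4 are shown for their matches to the cAMP response element, which activity-dependent transcription factors bind, with the same capitals as above.
Fos, chr12:85473640-85473939 (plus strand): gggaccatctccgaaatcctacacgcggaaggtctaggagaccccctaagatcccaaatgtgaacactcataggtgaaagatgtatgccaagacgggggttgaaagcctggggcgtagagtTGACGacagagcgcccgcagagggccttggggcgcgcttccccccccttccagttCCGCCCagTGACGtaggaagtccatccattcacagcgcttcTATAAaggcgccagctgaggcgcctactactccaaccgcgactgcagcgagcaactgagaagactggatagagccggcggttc
Npas4, chr19:4989922-4990221 (minus strand): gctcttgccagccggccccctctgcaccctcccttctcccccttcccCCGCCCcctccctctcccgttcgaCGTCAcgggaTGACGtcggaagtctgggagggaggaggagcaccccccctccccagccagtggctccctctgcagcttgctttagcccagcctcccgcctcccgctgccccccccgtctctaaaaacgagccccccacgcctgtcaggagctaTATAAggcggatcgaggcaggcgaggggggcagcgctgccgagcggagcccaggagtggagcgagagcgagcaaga
Each promoter holds 1 match to the TATA letters, 1 to the GC box and 2 to the cAMP element letters. A match is a description of letters and not evidence of binding.

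**Figure D3:**
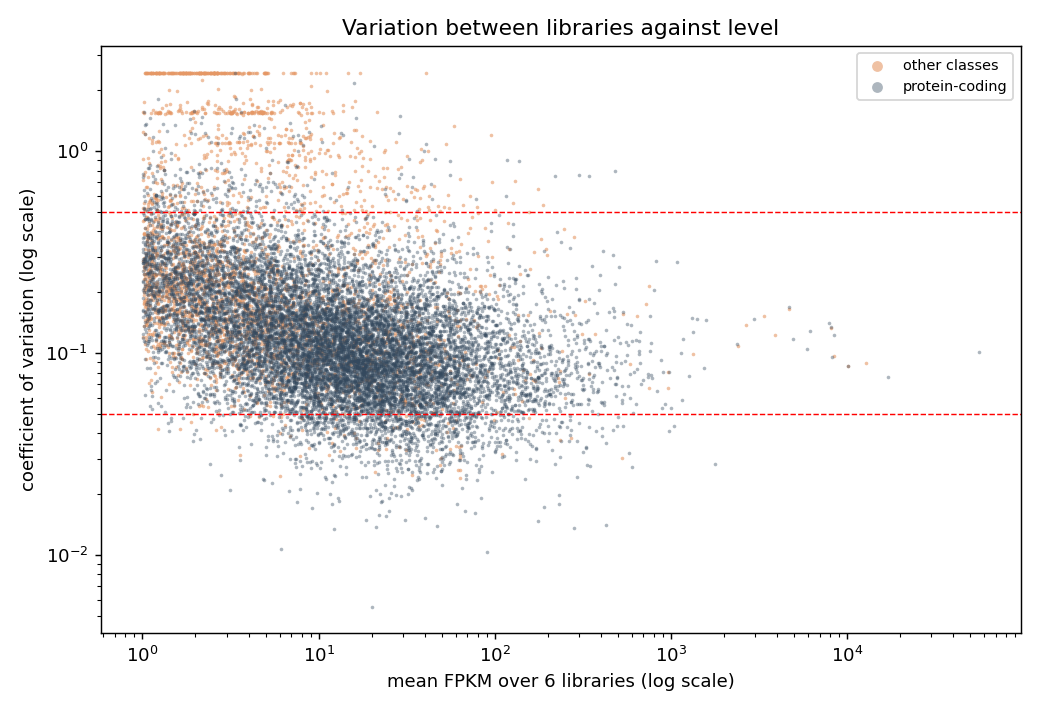
CV over 6 libraries against mean FPKM for the 16307 genes with a mean of at least 1 FPKM, both axes logarithmic, with dashed lines at CVs of 0.5 and 0.05. The points narrow as the level rises, and genes other than protein-coding ones fill the top of the plot up to a ceiling of 2.45.

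Over all 16307 genes the median CV was 0.121, with 0.0457 and 0.649 as the 5th and 95th percentiles. The CV fell with level: its median was 0.239 from 1 to 2 FPKM, 0.102 from 10 to 20 FPKM and 0.0804 from 100 to 1000 FPKM. Among genes of 1 FPKM or more, 1072 had a CV of 0.5 or more, which is 6.57%, and 1095 had a CV of 0.05 or less, which is 6.71%. Only 281 of the 1072 were protein-coding. Short RNA genes made up most of the rest: 644 had exons of under 200 bases in all, and 86.7% of the 743 genes of that length passed 0.5. A value in 1 library alone gives a CV of 2.45, the ceiling for 6 libraries, and 195 genes had a value above 0 in 1 library only. Of these 195, 78 were annotated as microRNA, 58 as small nuclear RNA and 27 as small nucleolar RNA, with a median length of 107 bases. The highest of them were the mitochondrial transfer RNA mt-Tp, at 88.0 FPKM in Ct 6 alone, and the small nucleolar RNA Snord35a, at 66.5 FPKM in Ct 1 alone. In such short genes a listed 0 can be a failed estimate.

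Among the 281 protein-coding genes, Ct 1 held the highest value of 101 and Ct 6 of 60, while Ct 3 held the lowest value of 129. The 2 highest libraries were Ct 1 and Ct 5 for 94 genes and Ct 4 and Ct 6 for 77 genes. Without Ct 4 and Ct 6, 234 of 12987 protein-coding genes had a CV of 0.5 or more, 2 of them striatal markers and 16 olfactory bulb markers. Without Ct 1 and Ct 5, 242 of 12977 did, 21 of them striatal and 11 olfactory bulb markers. These pairs were left out after their high values were seen. Fewer variable markers of the kind high in the pair left out therefore follow from the choice and are no separate evidence. Of the 281, 58 belonged to the lists of striatal, olfactory bulb, immature or cholinergic neurons, choroid plexus or red blood cells. In that order these lists held 26, 22, 20, 5, 9 and 7 genes of any class at 1 FPKM or more, with some genes shared. Over all 13022 protein-coding genes, 2.16% had such a CV. All but the immature neuron list were singled out above by their median CV, so this overlap follows in part from that choice. Among the 7260 protein-coding genes with a mean of 10 FPKM or more and an established symbol, the 20 highest CVs ran from 2.18 for Ttr to 0.753 for Hbb-bt, and the next gene had 0.75.

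**Figure D4:**
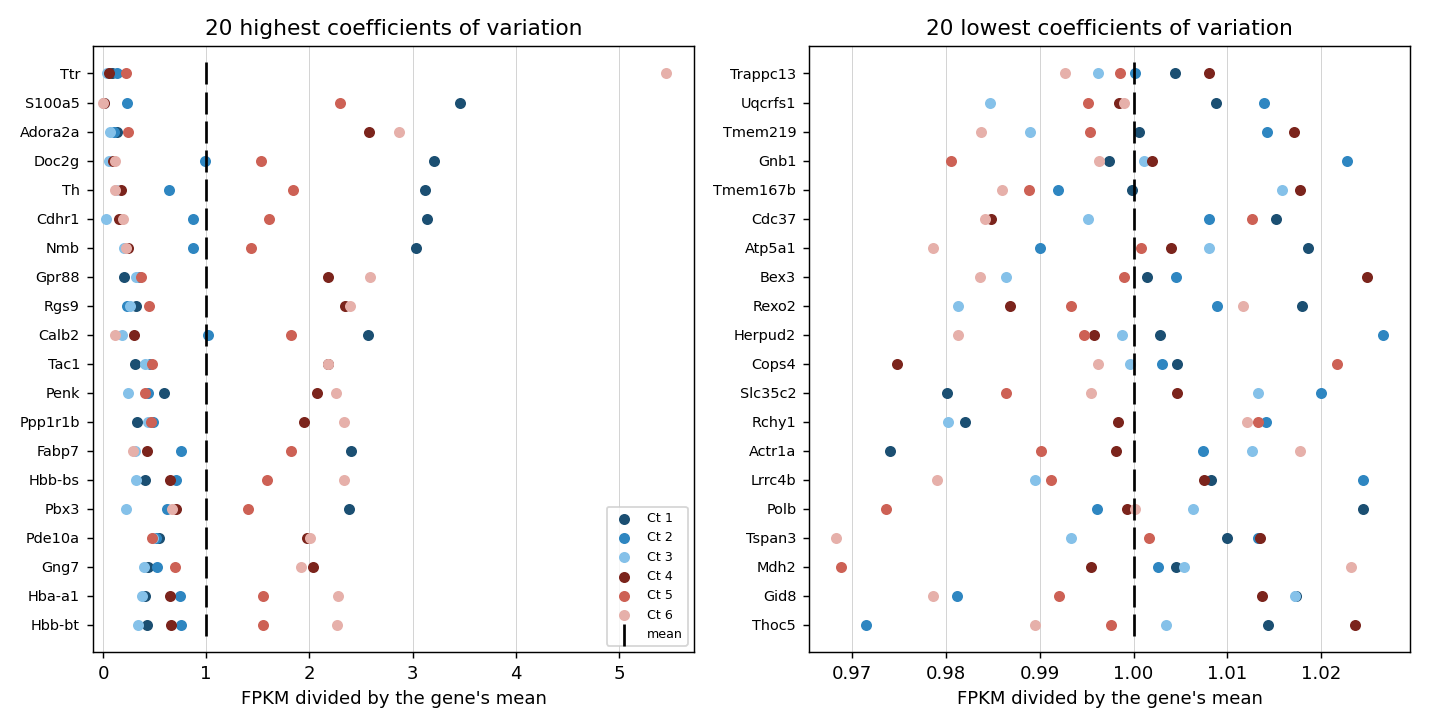
FPKM divided by the gene's mean, 1 coloured point per library with a black tick at 1, for the 20 highest (left) and 20 lowest (right) CVs among protein-coding genes with a mean of 10 FPKM or more and an established symbol, not a Gm, Rik or accession name. On the left, striatal genes such as Penk reach high values in Ct 4 and Ct 6, olfactory genes such as Calb2 in Ct 1 and Ct 5, and globins in Ct 5 and Ct 6; on the right all points lie close to 1.

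The lowest CVs were these. Trappc13, a subunit of a vesicle tethering complex, had 20.21, 20.13, 20.05, 20.28, 20.09 and 19.97 FPKM in Ct 1 to Ct 6, a CV of 0.00554. Uqcrfs1, the Rieske iron-sulfur subunit of respiratory complex III, had 91.0, 91.5, 88.8, 90.1, 89.8 and 90.1 FPKM. Gnb1, a beta subunit of heterotrimeric G proteins, had 283, 290, 284, 284, 278 and 282 FPKM, and Mdh2, the malate dehydrogenase of mitochondria, had 232 ± 4.13 FPKM. For 12 of the 20 lowest CVs at a mean of 1 FPKM or more, the value lay under the rough counting error estimated from depth and gene length, so their order is not resolved. By function list, the tricarboxylic acid cycle had a median CV of 0.0441, with 11 of 20 genes at 0.05 or less. Of 77 ubiquitin and proteasome genes, 32 were at 0.05 or less, as were 23 of 69 translation factors. So were 22 of 85 nuclear oxidative phosphorylation genes and 17 of 78 mitochondrial ribosomal protein genes. The same held for 4 of 16 glycolytic enzymes and for 7 of 32 genes of 14-3-3 and phosphatase proteins. The background was 6.71% of all genes and 1019 of 13022 protein-coding genes. The CV falls with level, and 734 of 6604 protein-coding genes with a mean of 10 to 100 FPKM were at 0.05 or less. The promoters of Uqcrfs1 and Gnb1 are shown as examples of steady genes, with the same capitals.
Uqcrfs1, chr13:30545267-30545566 (minus strand): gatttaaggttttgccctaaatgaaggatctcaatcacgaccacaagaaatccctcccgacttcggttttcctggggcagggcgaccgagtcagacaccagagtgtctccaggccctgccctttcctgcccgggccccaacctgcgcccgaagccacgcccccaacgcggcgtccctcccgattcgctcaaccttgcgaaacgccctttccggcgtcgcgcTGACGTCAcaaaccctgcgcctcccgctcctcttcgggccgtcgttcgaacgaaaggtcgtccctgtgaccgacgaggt
Gnb1, chr4:155491111-155491410 (plus strand): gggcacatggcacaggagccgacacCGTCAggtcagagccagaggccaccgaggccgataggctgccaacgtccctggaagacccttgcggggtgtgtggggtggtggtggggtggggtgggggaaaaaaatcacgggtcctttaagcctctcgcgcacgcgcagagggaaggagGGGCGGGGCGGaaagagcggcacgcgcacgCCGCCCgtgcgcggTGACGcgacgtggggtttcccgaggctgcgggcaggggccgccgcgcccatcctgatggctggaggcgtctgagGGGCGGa
Neither holds the TATA letters or the CAAT box, and each holds 2 matches to the cAMP element letters. In Uqcrfs1 the 2 matches overlap on opposite strands within the same stretch, TGACGTCA, while in Gnb1 they lie apart. Each holds 31 CG pairs, against 4 in the promoter of Hba-a1. The median was 21 over protein-coding genes with a mean of 1 FPKM or more. It was 23 for those with a CV of 0.05 or less and 11 for those with 0.5 or more. Of protein-coding genes with a mean of 1 FPKM or more and a promoter in the table, 12.5% of 10175 held the TATA letters. That share was 21.7% of the 207 with a CV of 0.5 or more and 9.48% of the 833 with a CV of 0.05 or less. Within 10 to 100 FPKM the share was 11.1% of all 5288 such genes. It was 12.5% of the 24 with a high CV and 8.03% of the 598 with a low CV. The 12.5% rests on few genes and lies near the share of all. The cAMP element letters were in 31.8% of the 10175, 19.8% of the 207 and 38.3% of the 833. Within 10 to 100 FPKM they were in 34.4% of all, 20.8% of the 24 and 37.1% of the 598.

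Some genes were set apart in 1 or a few libraries with no list to join them; these were chosen after their values were seen. Pttg1, the securin gene, had 31.6, 42.8, 0.508, 16.4, 16.4 and 34.9 FPKM in Ct 1 to Ct 6, so that Ct 3 was almost without it. On chromosome 4, between positions 41903610 and 42874234, 11 genes or transcripts had at most 0.611 FPKM in Ct 4 and 1.49 to 10.8 FPKM in the other libraries. Among them, the chemokine gene Ccl21b had 3.50, 10.8, 3.66, 0, 7.10 and 7.86 FPKM. These 11 include close copies of each other, which share reads, so they are not separate observations.

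The opposite pattern, a high value in 1 library, was found for Tlr13, a receptor of innate immunity, at 8.27 FPKM in Ct 4 and at most 0.847 FPKM elsewhere. H2-Q5, a histocompatibility gene, had 4.68 FPKM in Ct 3 and at most 0.492 FPKM elsewhere. The processed transcript AA465934 had 6.94, 7.22, 49.4, 89.8, 93.5 and 5.22 FPKM, with Ct 3, Ct 4 and Ct 5 far above the other 3. All 6 mice carry the same strain label. Whether they differ in sequence at these loci was not tested.

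**Figure D5:**
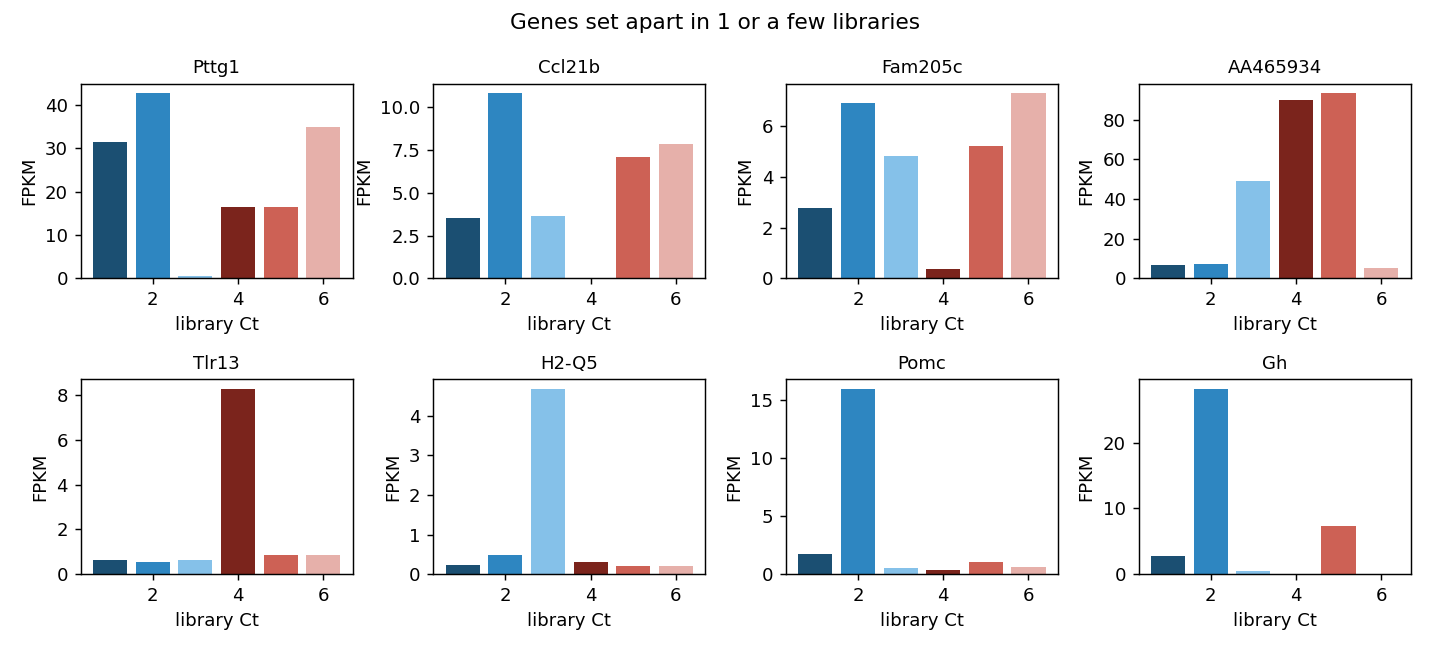
FPKM of 8 genes in each of the 6 libraries, 1 bar per library from 0, with a separate linear axis per gene. Pttg1 is close to 0 in Ct 3 and the chromosome 4 genes Ccl21b and Fam205c in Ct 4, while Tlr13, H2-Q5 and Pomc are high in 1 library each and Gh is highest in Ct 2, then Ct 5.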

How the data were processed

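Polyadenylated RNA was measured in 6 driver-only libraries, Ct 1 to Ct 6. The authors deposited 1 table of FPKM values per library. Per the submitters' processing notes, TopHat2 and DESeq were used, without stated versions. No build, annotation or quantifier is named in the sources used here. Gene names, classes, exon lengths and coordinates came from GENCODE mouse release 21, which matched 45225 of 46073 identifiers. Nuclear copies were found with blastn 2.17.0+ (at least 95% identity over 90% of the copy). Means, SDs, CVs and shares of summed FPKM were computed with pandas 2.3.3 and numpy 2.4.6, and the CV was tested on simulated data. No count test was run because the values are not counts, and no library was dropped. Replicates are separate mice only as far as the labels say.

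Genes were named by rule: the 20 highest means; the 20 highest and 20 lowest CVs at a mean of 1 FPKM or more, and again among protein-coding genes at 10 FPKM or more; the 3 highest means and the highest CV of each list; and Calm2, Calm3, Camk2a, Mir211, Trpm1, Xist and Ddx3y. A few of the genes so chosen are not reported here. Slc17a7, Snurf, Gm13341, Fos, Npas4, Folr1, Kl, Aqp1, Kcnj13, Ache, Zic4, Ngfr, Alas2 and the genes set apart in 1 library were chosen after their values were seen. The genes and lists were chosen with earlier results of these data known. Alternatives changed the total, the minimum level, the scaling and the libraries.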

Additional observations from a re-analysis of the deposited data

Results flagged for a closer look

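Of 223 gene levels and list shares examined, 28 had a library set apart from the other 5 by a gap over range above Dixon's 95% critical value, a limit that chance passes about 1 time in 20; the examined genes include some chosen for their spread. Ct 1 was the library in 10 cases and Ct 2 in 9, of which 6 are the pituitary hormone list and its genes, chosen after their values were seen.

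In Ct 1, the lowest values were those of mt-Co1 (14603 FPKM), mt-Nd4 (4733 FPKM) and mt-Nd6 (3809 FPKM). The highest values in Ct 1 were Fosb at 13.2 FPKM, Snord35a at 66.5 FPKM, Bglap at 2.29 FPKM and Cnga2 at 0.586 FPKM, and the list shares of HCN channels (0.0105%), GABA synthesis and uptake (0.150%) and microRNA processing (0.0378%).

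In Ct 2, pituitary hormones were highest with a share of 0.00767%: Pomc had 15.9 FPKM, Gh 28.2 FPKM, Prl 5.67 FPKM, Cga 1.38 FPKM and Fshb 0.116 FPKM. Ct 2 was lowest for the share of cholesterol synthesis (0.0872%), for Ly6a (8.80 FPKM) and for Uty (4.30 FPKM).

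In Ct 3, cytosolic ribosomal proteins had their lowest share, 2.85%, and C1ra (2.46 FPKM) and H2-Q5 (4.68 FPKM) their highest values. In Ct 4, the share of cholinergic neurons (0.0099%), Cacna2d2 (17.2 FPKM), mt-Tm (61.0 FPKM) and Tlr13 (8.27 FPKM) were highest. In Ct 6, the share of choroid plexus (0.0311%) and Ttr (86.7 FPKM) were highest.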

How the results depend on the processing

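Leaving out each library in turn moved none of the 90 summary values by more than their spread, or their counts by more than 1.5 times. Of 486 other such values, 3 moved, the CVs of Ttr (0.69 without Ct 6), S100a5 (2.05 without Ct 5) and Adora2a (1.79 without Ct 4). For means over the 6 libraries, such as the shares, this outcome was fixed in advance. Leaving out 1 of 6 values cannot shift their mean by as much as their SD. The striatal share, for example, went from 0.104% to 0.0824% without Ct 6 and counted as unmoved. Under the other alternatives, 223 of 345 values beyond the summary ones moved by more than their spread. The median CV was 0.133 at a minimum mean of 0.5 FPKM, 0.1003 at 5 FPKM, 0.110 over protein-coding genes and 0.112 as an SD of log2(FPKM + 0.5). Genes with a CV of 0.5 or more numbered 357 at 5 FPKM, 281 among protein-coding genes and, chosen after seeing the data, 422 with exons of 200 bases or more. Genes with a CV of 0.05 or less numbered 1653 without Ct 4 and Ct 6 and 1890 without Ct 1 and Ct 5, both with fewer libraries and chosen after seeing the data. The mean r between libraries was 0.899 with a pseudocount of 0.1 and 0.949 with 1.

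Shares changed with the total by construction. Without mitochondrially encoded genes, the 20 most abundant genes held 12.9%, protein-coding genes 81.0%, excitatory neuron markers 0.844%, oligodendrocyte markers 0.524%, ribosomal proteins 4.17%, nuclear oxidative phosphorylation 3.39% and synaptic vesicle proteins 1.84%. Without the nuclear copies as well, an added choice, these were 4.98, 90.1, 0.941, 0.584, 4.64, 3.78 and 2.05%. Weighted by exon length, they were 6.0, 95, 1.10, 0.661, 1.88, 1.63 and 2.32%, with red blood cells at 0.0631%, olfactory bulb markers at 0.133% and mitochondrially encoded genes at 4.7%. Over protein-coding genes alone, excitatory neuron markers held 0.78%, mitochondrially encoded genes 25.2%, ribosomal proteins 3.85%, oxidative phosphorylation 3.13% and synaptic vesicle proteins 1.70%. Without genes under 200 bases, protein-coding genes held 86.0%. Precision is limited by 6 libraries. For protein-coding genes at 1 to 2 FPKM the rough counting CV estimated from depth had a median of 0.0885, against a median CV of 0.226. No paired analysis was possible because only 1 group was described.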
